A study of Mus musculus with 6 samples.

Results

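Neurotransmitter receptors were followed in enterospheres, free-floating spheroids of cells from the muscle layers of the newborn mouse gut, through the step from proliferation to differentiation. The genes were the receptors for glutamate (Gria, Grik, Grin and Grm), GABA (Gabra, Gabrb and Gabrg), serotonin (Htr), acetylcholine (Chrm, Chrna and Chrnb), noradrenaline and adrenaline (Adra and Adrb) and dopamine (Drd). They were chosen by symbol alone, with no measured value, and 70 of the 19938 genes that had a row of their own on the array met the rule. Another 12 gene names of these families were not analysed here, and only 2 adrenergic receptors, both of the alpha class, were among the 70. Every gene was read from 1 row of the array (1 transcript cluster), the row with the highest mean where a gene had several.

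Each of the 6 arrays carried RNA of 1 sample of C57BL/6 enterospheres, prepared from neonatal mice up to 12 h old, 3 mice per sample by the labels. The 3 proliferation samples were kept in medium with EGF and FGF for all 11 days, and the 3 differentiation samples for 9 days, followed by 2 days in a medium that lacked both factors and contained ascorbic acid-2-phosphate. The loss of the growth factors and the addition of ascorbic acid-2-phosphate cannot be told apart in this comparison. The labels give EGF at 10 ng/mL and FGF at 20 ng/mL, while the study's methods give a higher EGF dose and fewer pups per culture, taken from a common litter, and describe independent experiments. By those methods picked enterospheres were moved into 1 of both media, so arrays of both groups may share an experiment. No gene was altered and no drug was given in either group. The samples are whole spheroids, so that fewer cells of a type and less RNA per cell cannot be told apart. Of the markers of enteric neurons, 12 of 15 measured genes had a mean at or above 6.15, the median row mean of the array on the log2 scale, and of those of enteric glia 8 of 8. The same held for 7 of 7 markers of fibroblasts, 6 of 6 of interstitial cells of Cajal and 6 of 10 of smooth muscle. Of all genes, 60.1% lay at or above that level.

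Receptors for neurotransmitters fall into ion channels, assembled from several subunits and opened by the transmitter itself, and receptors coupled to G proteins, which act through Gq, Gi or Gs on calcium, cyclic AMP and potassium channels. In the enteric nervous system acetylcholine acting on nicotinic receptors carries most fast excitation between neurons, and muscarinic receptors carry the signal on to smooth muscle. Serotonin reaches the plexus both from the epithelium and from enteric neurons. Many of these receptors are present in progenitors before synapses form, and immature cells can respond to transmitters as they divide and migrate.

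Among the 70 receptor genes, 5 were differentially expressed. Chrna7, the subunit of the homomeric alpha 7 nicotinic receptor, and Htr2b, a serotonin receptor coupled to Gq, were upregulated 1.77-fold and 2.21-fold in differentiating enterospheres. Htr1b, a serotonin receptor coupled to Gi, was downregulated 2.38-fold, and Gria3 and Grik2, which encode subunits of AMPA and kainate glutamate receptors, were downregulated 1.53-fold and 1.57-fold. The 5 genes are 7.14% of the receptor genes, where 5.91% of all genes passed (limma, adjusted p under 0.05), so the share lay near the background. Upregulated were 2 receptor genes, with a background of 2.94%, and downregulated 3, with a background of 2.97%. The median log2 difference, differentiation minus proliferation, was 0.01 over the receptor genes and 0.02 over all genes. The labels do not say whether the replicates of a group came from separate litters, so that the p-values measure the spread between these samples. The comparison treated the arrays as unpaired. With the replicate number as a block, only Chrna7 of the 5 genes was still called, and 664 rows of the array against 1459.

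At an unadjusted p under 0.05 (limma), 21 receptor genes passed, or 30.0%, with a background of 19.1% over all genes. The values of both groups did not overlap in 26 receptor genes, or 37.1%, with a background of 27.5%. The methods' t-test, uncorrected and with a minimum change of 1.5-fold, named 9 receptor genes, and 5.66% of all genes passed it. These 9 are also the receptor genes with a row that the study's own tables list, which were drawn from the same arrays by that test, so that the tables are no independent evidence. Without proliferation replicate 3 or without differentiation replicate 1, the adjusted test of limma called 0 receptor genes (15 and 14 at an unadjusted p under 0.05). It called 2 without differentiation replicate 2, 1 without differentiation replicate 3, 4 without proliferation replicate 2 and 5 without proliferation replicate 1. Calls over all 35556 rows fell as well, from 1459 with all arrays to 480 without proliferation replicate 3 and 294 without differentiation replicate 1. They were 683 without differentiation replicate 2, 850 without differentiation replicate 3, 1213 without proliferation replicate 2 and 1297 without proliferation replicate 1.

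**Figure D1:**
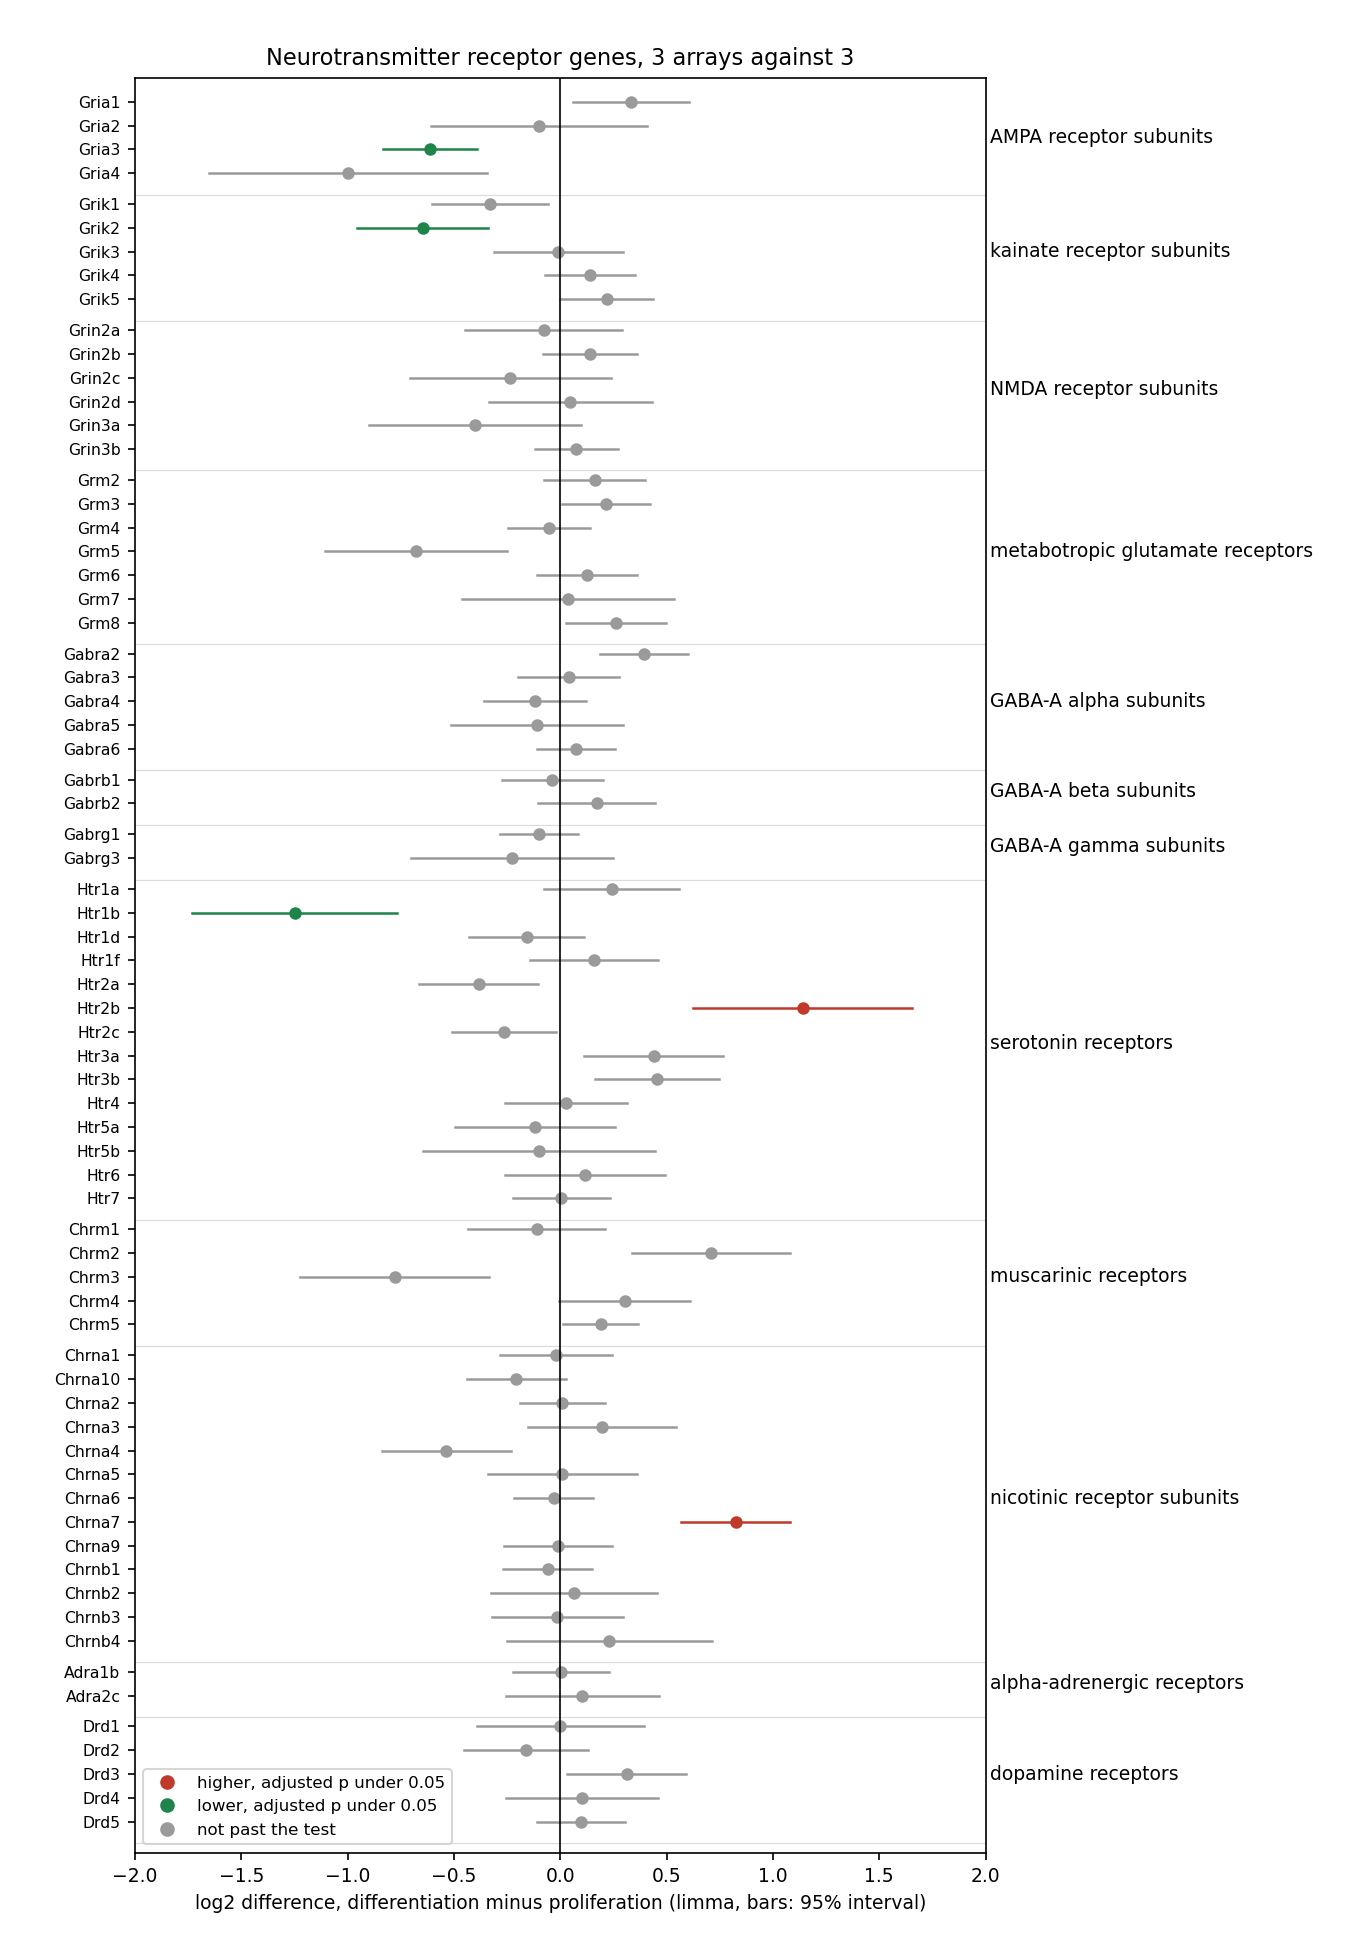
Log2 difference (differentiation minus proliferation, horizontal axis) of each of the 70 receptor genes, grouped by family, with points for the limma estimate and bars for its 95% interval. Red marks the 2 genes with adjusted p under 0.05 that were higher, green the 3 that were lower, and most other genes lie near 0.

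The level on the array separated the genes. At or above the median row mean lay 30 of the 70 receptor genes, or 42.9%, against 60.1% of all genes, so that more of the receptor genes than of all genes were dim. All 5 calls fell among the 30 brighter genes (16.7%, where 9.13% of the brighter genes of the array passed), and 0 of the 40 dimmer receptor genes passed, where 1.07% of the dimmer genes of the array did. Brightness was the mean over both groups, so it is not independent of a call. Htr2b counted as brighter only through differentiation, with group means of 5.94 in proliferation, below the median row mean, and 7.08 in differentiation. At an unadjusted p under 0.05 (limma), 7 of the 40 (17.5%) passed, against 6.87% of all dimmer genes. Of the 65 receptor genes that did not pass the adjusted test, 46 (70.8%) had a 95% interval of the difference within 1.5-fold in either direction. For the rest of them the interval reached past 1.5-fold, so that a change of that size remains possible. In some of these the interval left out 0, as in Chrm2 and Chrm3. In others, as in Gria2 and Htr5b, it held 0. The share was 86.4% among all genes that did not pass.

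Serotonin receptors gave both the largest increase and the largest decrease among the 70 genes. Htr1b had log2 values of 7.40, 8.22 and 7.70 in proliferation replicates 1, 2 and 3, and of 6.46, 6.47 and 6.63 in differentiation replicates 1, 2 and 3. All proliferation arrays lay above all differentiation arrays, proliferation replicate 2 was the highest of the 6, and the differentiation arrays lay close together. The log2 difference was -1.25 (SE 0.20, adjusted p = 0.0214). Htr2b had log2 values of 6.24, 5.51 and 6.07 in proliferation and of 6.96, 7.38 and 6.90 in differentiation. Its groups did not overlap either, with proliferation replicate 2 the lowest array and differentiation replicate 2 the highest. The log2 difference was 1.14 (SE 0.22, adjusted p = 0.037).

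Leaving out 1 array lowered the calls over the whole table, from 1459 rows to between 294 and 1297. Both serotonin receptor calls were lost in most of these fits. That of Htr1b was lost without proliferation replicate 3 (adjusted p = 0.0831) or differentiation replicate 1 (0.107), 2 (0.0790) or 3 (0.0563), with log2 differences from -1.44 to -1.03 over the 6 arrays left out in turn. That of Htr2b was kept only without proliferation replicate 1 (adjusted p = 0.0431). Leaving out proliferation replicate 2 or 3 gave 0.0504 and 0.108 and leaving out differentiation replicate 1, 2 or 3 gave 0.124, 0.106 and 0.0709, all with a positive difference.

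The closest relatives of Htr2b did not pass the adjusted test. Htr2a and Htr2c, the other Gq-coupled serotonin receptors, had log2 differences of -0.38 (SE 0.12, adjusted p = 0.159) and -0.26 (SE 0.10, adjusted p = 0.275). The within-array difference Htr2b minus Htr2a was higher in differentiation by 1.52 on the log2 scale (SD 0.28 in proliferation and 0.44 in differentiation, n = 3 each), a pair chosen after its values were seen and given with no test. Htr3a and Htr3b encode the subunits of the only serotonin receptor that is an ion channel. Htr3a read 10.93, 10.54 and 11.03 in proliferation and 11.33, 11.24 and 11.24 in differentiation, a log2 difference of 0.44 (SE 0.14, adjusted p = 0.171). Htr3b read 7.64, 7.40 and 7.83, then 8.12, 8.0 and 8.11, a log2 difference of 0.45 (SE 0.12, adjusted p = 0.115). In both the groups did not overlap and proliferation replicate 2 was lowest, and the genes are direct neighbours in the mouse gene table. The other 8 serotonin receptor genes (Htr1a, Htr1d, Htr1f, Htr4, Htr5a, Htr5b, Htr6 and Htr7) had log2 differences from -0.16 to 0.24. In total 1 of 14 serotonin receptor genes was higher, 1 was lower and 12 did not pass.

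**Figure D2:**
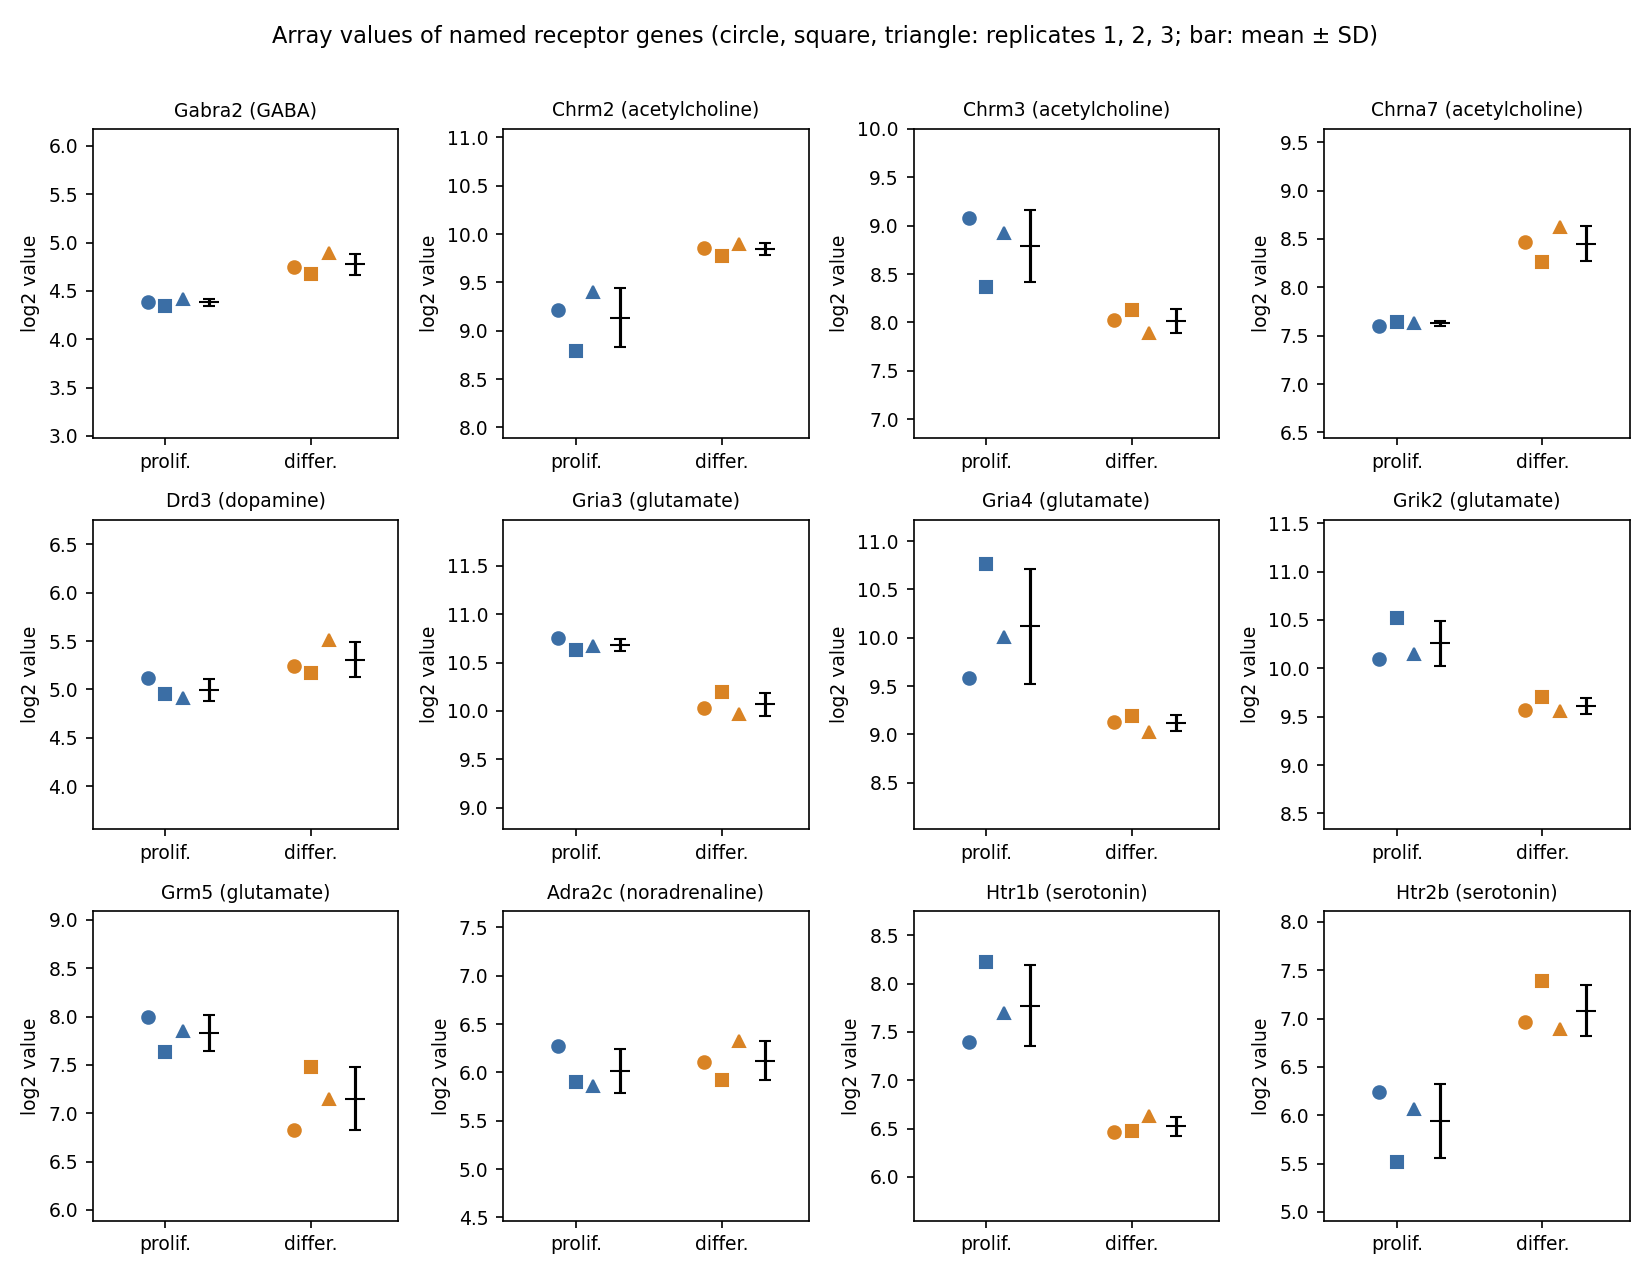
Log2 values of each array for 12 receptor genes, with the proliferation group on the left and the differentiation group on the right of each panel and symbols for replicates 1, 2 and 3. Black bars give mean and SD of 3 arrays, and every vertical axis spans the same range of log2 units, so that distances can be compared between panels. Chrna7 and Gria3 have tight proliferation groups, while those of Gria4, Htr1b, Chrm3 and Htr2b are spread.

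Of 22 glutamate receptor genes 2 passed the adjusted test, both downward (9.09%, with a background of 5.91% over all genes). The family as a whole did not shift, as 11 genes had a positive and 11 a negative difference, with a median log2 difference of 0.01. Gria3, an AMPA receptor subunit, had log2 values of 10.75, 10.63 and 10.67 in proliferation and of 10.03, 10.20 and 9.97 in differentiation. The arrays of each group lay close together and the groups were well apart, with a log2 difference of -0.61 (SE 0.09, adjusted p = 0.017). The call was lost without proliferation replicate 3 (adjusted p = 0.0806) and without differentiation replicate 1 (0.1) or 3 (0.0525). Gria4, another AMPA receptor subunit, read 9.58, 10.76 and 10.01 in proliferation and 9.13, 9.19 and 9.03 in differentiation. Its proliferation arrays were spread over more than 1 log2 unit, again with replicate 2 the highest, and its log2 difference of -0.998 (SE 0.28) did not pass (adjusted p = 0.12). Without proliferation replicate 1 the adjusted p was 0.0447 and without proliferation replicate 2 the difference was -0.68.

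Gria1, which with the other subunits forms the tetrameric AMPA channels, had log2 values of 6.52, 6.26 and 6.43 in proliferation and of 6.56, 6.84 and 6.82 in differentiation. The difference of 0.33 (SE 0.11, adjusted p = 0.214) did not pass, and the within-array difference Gria1 minus Gria3 was 0.94 higher in differentiation (SD 0.08 and 0.16, n = 3 each). This pair too was chosen after its values were seen. Gria2, the subunit that keeps AMPA channels closed to calcium, had a log2 difference of -0.10 with a 95% interval from -0.61 to 0.41. Of the 4 AMPA subunits, only Gria3 passed the adjusted test.

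Grik2, a pore-forming kainate receptor subunit, had log2 values of 10.10, 10.52 and 10.15 in proliferation and of 9.57, 9.70 and 9.56 in differentiation. The groups did not overlap, and replicate 2 was the highest array in each. The log2 difference was -0.65 (SE 0.13, adjusted p = 0.0446), and the call was lost whichever of the 6 arrays was left out (adjusted p from 0.0512 to 0.187). Grik5, which joins the pore-forming subunits in mixed channels, read 9.60, 9.41 and 9.60, then 9.67, 9.78 and 9.82, a log2 difference of 0.22 (SE 0.09, adjusted p = 0.323). Grik1, Grik3 and Grik4 had differences of -0.33, -0.01 and 0.14, and none of these passed.

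Of the 6 NMDA receptor subunits 0 passed by limma at either threshold, with log2 differences from -0.40 in Grin3a to 0.14 in Grin2b. Only 1 of them, Grin2d, had a mean at or above the median row. Among the 7 metabotropic glutamate receptors, 0 passed the adjusted test of limma and 3 had an unadjusted p under 0.05, with a background of 19.1% over all genes. Grm5, the Gq-coupled metabotropic receptor among the measured genes, read 8.0, 7.63 and 7.85 in proliferation and 6.83, 7.48 and 7.14 in differentiation. All its proliferation arrays were above all differentiation arrays, though proliferation replicate 2 and differentiation replicate 2 lay near each other. Its log2 difference was -0.68 (SE 0.18, adjusted p = 0.107). The other 6 metabotropic receptors, which couple to Gi and among which Grm3 and Grm8 had unadjusted p under 0.05, spanned -0.05 to 0.26.

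Acetylcholine receptor genes numbered 18, of which 1, Chrna7, was higher and 0 were lower by limma (2 were so at an unadjusted p under 0.05). The homomeric alpha 7 channel is known for its high calcium permeability. Chrna7 had log2 values of 7.60, 7.65 and 7.63 in proliferation and of 8.47, 8.26 and 8.63 in differentiation. The proliferation arrays lay very close together, and every differentiation array lay clearly above them. With a log2 difference of 0.83 (SE 0.11, adjusted p = 0.0108), this was the smallest adjusted p of the 70 genes. The call was lost without proliferation replicate 3 (adjusted p = 0.0600) and without differentiation replicate 1 (0.0695), and the difference stayed between 0.74 and 0.92.

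The nicotinic subunits of autonomic ganglia gave no such difference. Chrna3, the ligand-binding subunit of the ganglionic receptor, read 11.32, 10.82 and 11.27 in proliferation and 11.23, 11.40 and 11.36 in differentiation. Chrnb4, its usual partner, read 10.10, 9.34 and 10.04, then 10.00, 10.13 and 10.04. In both genes proliferation replicate 2 lay below the other 5 arrays, which overlapped, and the log2 differences were 0.19 (95% interval -0.15 to 0.54) and 0.23 (-0.25 to 0.71). Chrna5, the accessory subunit that neighbours Chrna3 in the genome, had a difference of 0.01. Chrna4, a subunit best known from the brain, read 6.87, 7.26 and 6.85 in proliferation and 6.43, 6.41 and 6.53 in differentiation, with no overlap and a log2 difference of -0.54 (SE 0.13) that did not pass (adjusted p = 0.0782). The other 8 nicotinic subunits spanned -0.21 to 0.06, among them Chrna1 and Chrnb1 of the muscle receptor at -0.02 and -0.06.

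Muscarinic receptors are coupled to G proteins, and 0 of 5 passed the adjusted test. At an unadjusted p under 0.05 by limma 3 of 5 passed, with a background of 19.1% over all genes. A mean at or above the median row was found in 4 of the 5, and 27.3% of all genes of that brightness passed. Chrm2, the Gi-coupled receptor of gut smooth muscle and of nerve endings, read 9.21, 8.80 and 9.40 in proliferation and 9.86, 9.78 and 9.90 in differentiation. Its log2 difference of 0.71 (SE 0.16) was just outside the threshold (adjusted p = 0.0608). Chrm3, the Gq-coupled receptor that drives smooth muscle contraction, read 9.08, 8.37 and 8.92, then 8.02, 8.13 and 7.89, a log2 difference of -0.78 (SE 0.19, adjusted p = 0.0807). Neither gene had overlapping groups, and proliferation replicate 2 was the lowest array of its group in both. Without that array the adjusted p of Chrm3 was 0.0134 and that of Chrm2 0.0538, with log2 differences of -0.99 and 0.54. The within-array difference Chrm2 minus Chrm3, in which a shift shared by both genes cancels, was higher in differentiation by 1.49 (SD 0.19 in proliferation and 0.18 in differentiation, n = 3 each), given as a description because the pair was chosen after its values were seen. Chrm1, Chrm4 and Chrm5 had differences of -0.11, 0.30 and 0.19.

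The measured receptors for the other transmitters showed small differences. Of the 12 genes of the chosen receptor families in the study's tables, 3 were not analysed here. All 3 are adrenergic receptors that the study lists as changed, so the 2 measured ones do not stand for that family. Of the 9 GABA-A receptor subunits, which form chloride channels, 0 passed by limma and 1 had an unadjusted p under 0.05. That gene was Gabra2, with log2 values of 4.38, 4.34 and 4.42 in proliferation and 4.75, 4.68 and 4.89 in differentiation, below the median row in every array. Its groups did not overlap and its log2 difference was 0.39 (SE 0.09, adjusted p = 0.0638). The other GABA-A subunits spanned -0.23 in Gabrg3 to 0.17 in Gabrb2. Dopamine receptors gave 0 of 5 in the adjusted and 1 of 5 in the unadjusted test of limma, with Drd3 at 5.12, 4.96 and 4.91, then 5.24, 5.17 and 5.51, a log2 difference of 0.31 (SE 0.12, adjusted p = 0.256). All 5 dopamine receptors and both adrenergic receptors had means below the median row. Adra2c read 6.28, 5.90 and 5.86 in proliferation and 6.11, 5.92 and 6.32 in differentiation, which overlap, and Adra1b had a difference of 0.00 (95% interval -0.22 to 0.23).

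By mode of action, 39 of the genes encode ion channel subunits, of which 1 was higher and 2 were lower, and 31 encode receptors coupled to G proteins, of which 1 was higher and 1 was lower. The 8 Gq-coupled receptors had log2 differences from -0.78 (Chrm3) to 1.14 (Htr2b), and 6 of 8 had an unadjusted p under 0.05 by limma. Of 18 Gi-coupled receptors, 5 did so, with a background of 19.1% over all genes. The 5 Gs-coupled receptors, which raise cyclic AMP, spanned 0.00 to 0.11, and 0 of 5 passed by limma at either threshold. The groups also differed in brightness. At or above the median row lay 5 of the 8 Gq-coupled, 4 of the 18 Gi-coupled and 1 of the 5 Gs-coupled receptors. Over the whole array 27.3% of such brighter genes and 6.87% of the dimmer genes had an unadjusted p under 0.05 by limma. Whether the Gq, Gi and Gs groups differ was not tested.

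The sequences just upstream of the genes that passed are shown so that their promoters can be set side by side. RefSeq promoters on assembly GRCm38.p6 were found for 55 of the 70 genes and for 4 of the 5 called genes, Gria3 being the exception. Each run holds the 250 bases before the annotated start, read in the direction of the gene, all 4 on the minus strand. Htr1b lies at chr9:81633833-81634082, Htr2b at chr1:86111981-86112230, Grik2 at chr10:49788755-49789004 and Chrna7 at chr7:63212527-63212776. Capitals mark matches to 6 motifs searched on both strands, which are the GC box (GGGCGG), the TATA box (TATAAA), the cAMP response element (TGACGTCA), the AP-1 site (TGANTCA), the ETS site (CCGGAAG) and the E-box (CACGTG).
Htr1b: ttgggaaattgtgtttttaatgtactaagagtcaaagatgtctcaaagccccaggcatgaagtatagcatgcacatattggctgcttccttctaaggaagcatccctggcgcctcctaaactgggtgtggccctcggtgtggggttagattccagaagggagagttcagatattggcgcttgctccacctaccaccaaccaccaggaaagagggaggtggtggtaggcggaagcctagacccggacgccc
Htr2b: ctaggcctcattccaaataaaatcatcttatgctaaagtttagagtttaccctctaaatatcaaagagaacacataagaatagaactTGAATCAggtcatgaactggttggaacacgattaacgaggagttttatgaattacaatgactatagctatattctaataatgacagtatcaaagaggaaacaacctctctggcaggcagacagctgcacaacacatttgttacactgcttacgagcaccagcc
Grik2: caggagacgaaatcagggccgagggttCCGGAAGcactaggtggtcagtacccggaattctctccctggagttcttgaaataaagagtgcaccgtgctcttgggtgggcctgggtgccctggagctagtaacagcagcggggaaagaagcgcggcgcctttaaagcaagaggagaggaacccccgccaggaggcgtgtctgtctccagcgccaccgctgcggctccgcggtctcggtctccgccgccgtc
Chrna7: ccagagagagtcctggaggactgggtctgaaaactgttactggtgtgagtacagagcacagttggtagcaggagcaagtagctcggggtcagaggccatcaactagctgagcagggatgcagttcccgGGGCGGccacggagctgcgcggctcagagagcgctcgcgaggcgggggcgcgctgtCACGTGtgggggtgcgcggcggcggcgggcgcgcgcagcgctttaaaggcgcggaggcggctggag

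The 4 promoters differed in base composition and in the motifs they hold. That of Chrna7 was 67.2% G and C with 25 CpG dinucleotides and held a GC box and an E-box, and that of Grik2 was 62.8% G and C with 20 CpG and held an ETS site. That of Htr2b was 37.6% G and C with 3 CpG and held an AP-1 site, and that of Htr1b, with 52.4% and 6 CpG, held none of the 6 motifs. Over all 32851 promoters of the table a GC box was found in 32.7%, a TATA box in 12.4%, a cAMP response element in 1.55%, an AP-1 site in 6.75%, an ETS site in 6.91% and an E-box in 6.02%. In the 67 promoters of the receptor genes these shares were 44.8%, 7.46%, 0%, 8.96%, 1.49% and 2.99%, with a median of 58.8% G and C against 52.4% over all promoters. No motif was common to the 4 called genes, and a match of letters is no binding site.

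The arrays of the proliferation group differed more in these genes than in others. In the 30 receptor genes at or above the median row, the median SD was 0.24 in proliferation and 0.11 in differentiation, while it was 0.11 and 0.09 over all genes of that brightness. Proliferation replicate 2 was the lowest array of its group in 22 of the 30 (73.3%), against 44.4% of all such genes. Of all 70 genes it lay at least 0.3 below the mean of the other proliferation arrays in 18, led by Chrnb4 (-0.73), Htr2b (-0.64), Grm7 (-0.64) and Chrm3 (-0.63), and at least 0.3 above it in 6. The 6 were Gria4 (0.96), Grin3a (0.68), Htr1b (0.67), Grin2c (0.45), Grik2 (0.40) and Chrna4 (0.40).

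Markers of cell types moved with this array and with the groups. The 15 measured markers of enteric neurons had mean log2 levels of 9.17, 8.81 and 9.27 in proliferation, lowest in replicate 2, and of 9.22, 9.29 and 9.09 in differentiation, with 2 genes higher and 0 lower. The 10 genes of cell division averaged 9.65, 10.37 and 9.94, highest in replicate 2, and then 7.98, 8.20 and 8.17, with 0 higher and 9 lower. Enteric glia markers averaged from 10.39 to 10.64 in proliferation and from 10.71 to 10.84 in differentiation, with 2 of 8 higher and 2 lower. Smooth muscle markers averaged from 6.84 to 6.98 and from 7.26 to 7.41, with 4 of 10 higher and 1 lower, and 10 myelin genes from 6.76 to 6.79 and from 7.78 to 7.93, with 4 higher and 0 lower. Markers of interstitial cells of Cajal averaged from 9.67 to 10.10 and from 9.04 to 9.25, with 0 of 6 higher and 3 lower. Those of fibroblasts averaged from 10.11 to 10.67 and from 10.60 to 10.74, with 1 of 7 higher and 0 lower. The low level of proliferation replicate 2 was not particular to neuron markers. That array was also the lowest of its group for smooth muscle, interstitial cells of Cajal, fibroblasts, skeletal muscle, mesothelial cells and macrophages. It was the highest for enteric glia and endothelial cells, and lay between the others for myelin genes and epithelial cells. In the lists for epithelial cells, skeletal muscle, mesothelial cells, macrophages and endothelial cells 0 genes passed by limma, with 2 at an unadjusted p under 0.05. The part of these cell types in the differences of the receptor genes was not tested, and array values have no level at which a marker is absent.

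**Figure D3:**
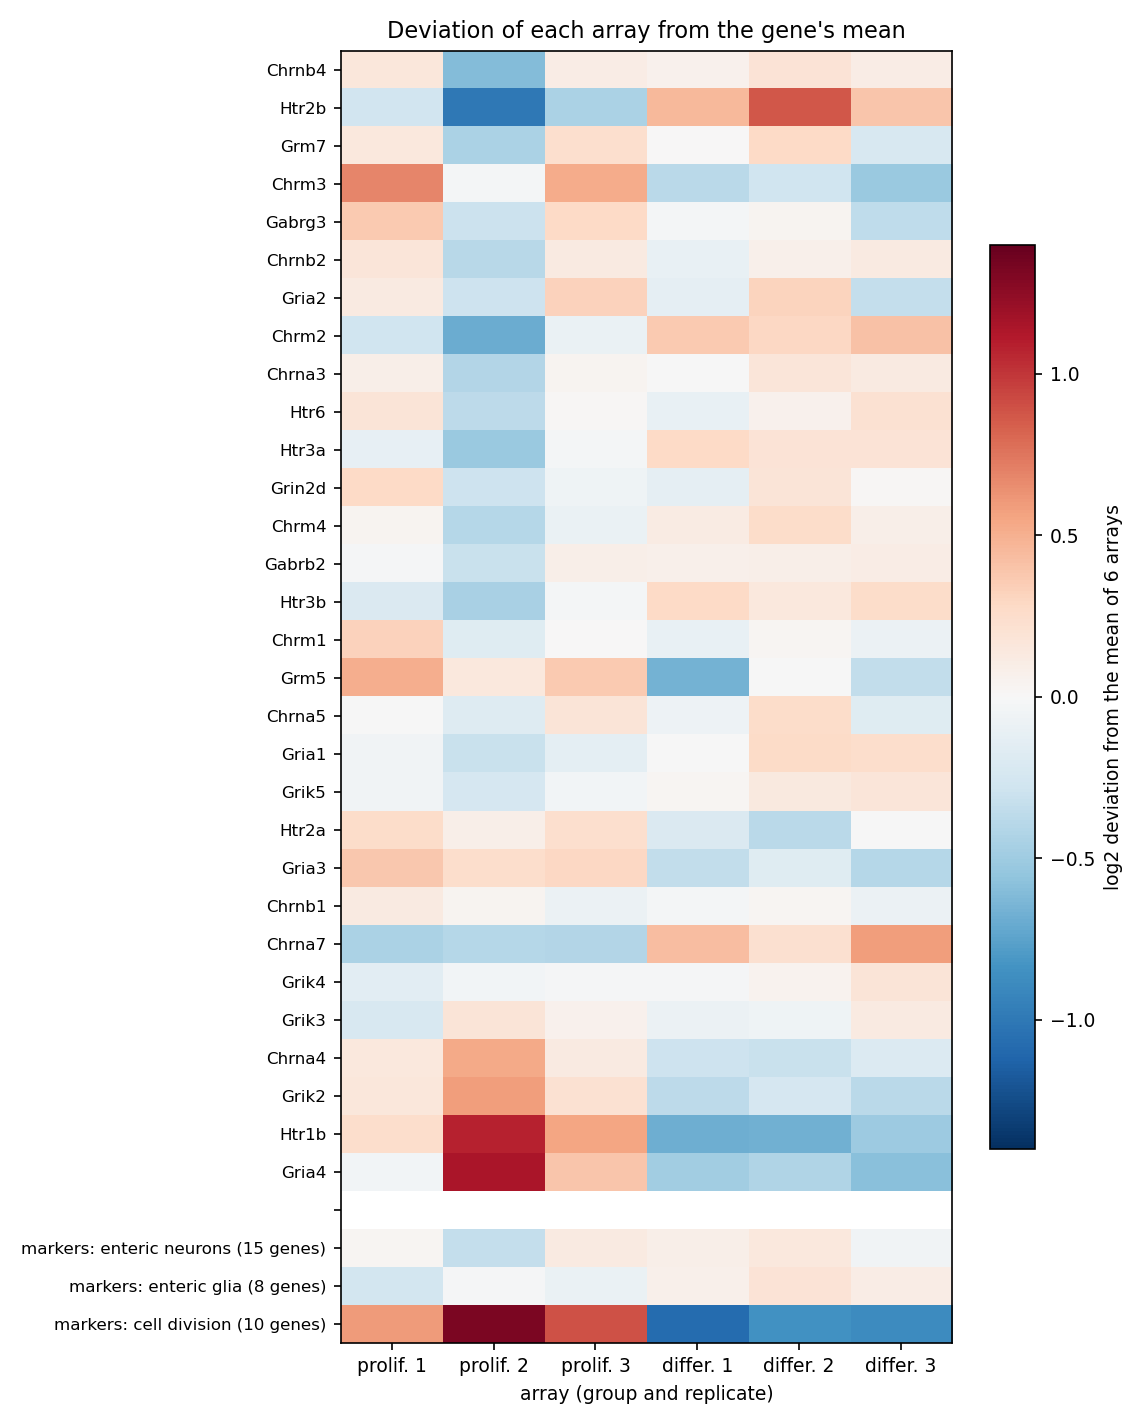
Deviation of each of the 6 arrays (columns) from the gene's own mean, in log2 units, for the 30 receptor genes at or above the median row, ordered by how proliferation replicate 2 compared with the other proliferation arrays. The bottom rows show the mean of 3 marker lists. Proliferation replicate 2 is blue for most receptor genes and for the neuron markers. It is most strongly red for Gria4, Htr1b, Grik2, Chrna4 and the genes of cell division, and paler red for some others, such as Gria3.

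Genes that work with these receptors were read from 8 lists. The share past the adjusted test ran from 0% to 15.4% of a list, where 5.91% of all genes and 9.13% of the brighter genes passed. The lists hold 12 to 49 measured genes, and whether their shares differ from the background was not tested. Among 49 measured receptors of other families, 1 passed. P2ry1, a Gq-coupled receptor for ADP, had log2 values of 9.34, 9.33 and 9.28 in proliferation and of 8.30, 8.42 and 8.20 in differentiation. The groups were far apart against their spread, with a log2 difference of -1.01 (SE 0.09, adjusted p = 0.00375), and the call was kept whichever of the 6 arrays was left out. The other 48, which include GABA-B, glycine, P2X, adenosine, histamine, opioid, tachykinin and neuropeptide Y receptors, had log2 differences from -0.46 to 0.35.

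On the side of glutamate, 1 of 33 auxiliary and scaffold proteins passed. Neto2, an auxiliary subunit of kainate receptors, read 9.14, 9.97 and 9.47 in proliferation and 8.18, 8.32 and 8.08 in differentiation, a log2 difference of -1.33 (SE 0.21, adjusted p = 0.0181). Like Grik2, it was lower in differentiation and highest in proliferation replicate 2, and its call was lost without proliferation replicate 3 (0.0765) or differentiation replicate 1, 2 or 3 (0.0938, 0.0566 and 0.0622). Larger or similar values that did not pass were those of Nptx1, a secreted pentraxin that gathers AMPA receptors, at -1.56 (adjusted p = 0.126), and of Cacng5, an AMPA receptor auxiliary subunit, at 1.21 (adjusted p = 0.0805). Of 12 genes of glutamate supply and uptake, 0 passed by limma, and 3 did at an unadjusted p under 0.05.

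For GABA, 2 of 13 genes passed, both downward. Abat, which breaks down GABA, read 10.15, 9.88 and 10.08 in proliferation and 9.43, 9.45 and 9.45 in differentiation, a log2 difference of -0.60 (SE 0.09, adjusted p = 0.0198). Slc12a2, the sodium, potassium and chloride cotransporter that loads immature neurons with chloride, fell by 0.64 on the log2 scale (SE 0.11, adjusted p = 0.0254). Abat lost its call without proliferation replicate 3 (0.0962) or differentiation replicate 1, 2 or 3 (0.107, 0.0690 and 0.0589), and Slc12a2 without proliferation replicate 1 or 3 (0.0706 and 0.115) or differentiation replicate 1 or 3 (0.122 and 0.0775).

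For acetylcholine, 1 of 15 genes was higher and 1 was lower. Lrp4, the agrin receptor that clusters nicotinic receptors at the muscle endplate, read 8.27, 8.19 and 8.28 in proliferation and 9.30, 9.12 and 9.27 in differentiation. Its log2 difference of 0.98 (SE 0.09, adjusted p = 0.00363) passed whichever of the 6 arrays was left out. Bche, the enzyme butyrylcholinesterase, was lower by 1.08 (log2 difference -1.08, SE 0.17, adjusted p = 0.0202) and lost its call without proliferation replicate 3 (0.0774) or differentiation replicate 1, 2 or 3 (0.104, 0.0519 and 0.0650). Tmem35a, the chaperone of alpha 7 receptors, read 6.30, 6.05 and 6.03, then 6.56, 6.52 and 6.61, with a log2 difference of 0.44 that did not pass (adjusted p = 0.0665).

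For monoamines, 2 of 15 genes passed, both upward. Ddc, the decarboxylase that makes serotonin and dopamine from their precursors, read 5.57, 5.68 and 5.80 in proliferation and 6.36, 6.37 and 6.64 in differentiation, a log2 difference of 0.78 (SE 0.11, adjusted p = 0.0153). Its proliferation values lay below the median row mean of 6.15 and its differentiation values not far above it. Slc29a4, a low-affinity monoamine transporter, rose by 0.63 (SE 0.12, adjusted p = 0.0392). The call of Ddc was lost without proliferation replicate 3 (0.0505) or differentiation replicate 1 (0.0672), and that of Slc29a4 whichever of the 6 arrays was left out (0.0540 to 0.136).

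Downstream of receptors coupled to G proteins, 1 of 19 genes for G proteins, arrestins and receptor kinases passed, and 2 of 20 RGS genes, all upward. Arrb1 encodes an arrestin that uncouples and internalises activated receptors. It read 9.97, 9.63 and 9.93 in proliferation and 10.97, 11.00 and 11.26 in differentiation, a log2 difference of 1.23 (SE 0.13, adjusted p = 0.00586). RGS proteins speed the shut-off of Gq and Gi, and Rgs4 read 6.85, 6.74 and 7.04, then 7.69, 7.96 and 7.89, a difference of 0.97 (SE 0.12, adjusted p = 0.00808). Both calls were kept whichever of the 6 arrays was left out. Rgs3 rose by 0.48 (SE 0.07, adjusted p = 0.0177), and its call was lost without proliferation replicate 3 (0.0806) or differentiation replicate 1, 2 or 3 (0.106, 0.0669 and 0.0508). Read as the mean of its rows, Rgs3 had a difference of 0.26 and did not pass (adjusted p = 0.0717). Gnai1, a Gi subunit, had a difference of -0.82 that did not pass (adjusted p = 0.12).

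**Figure D4:**
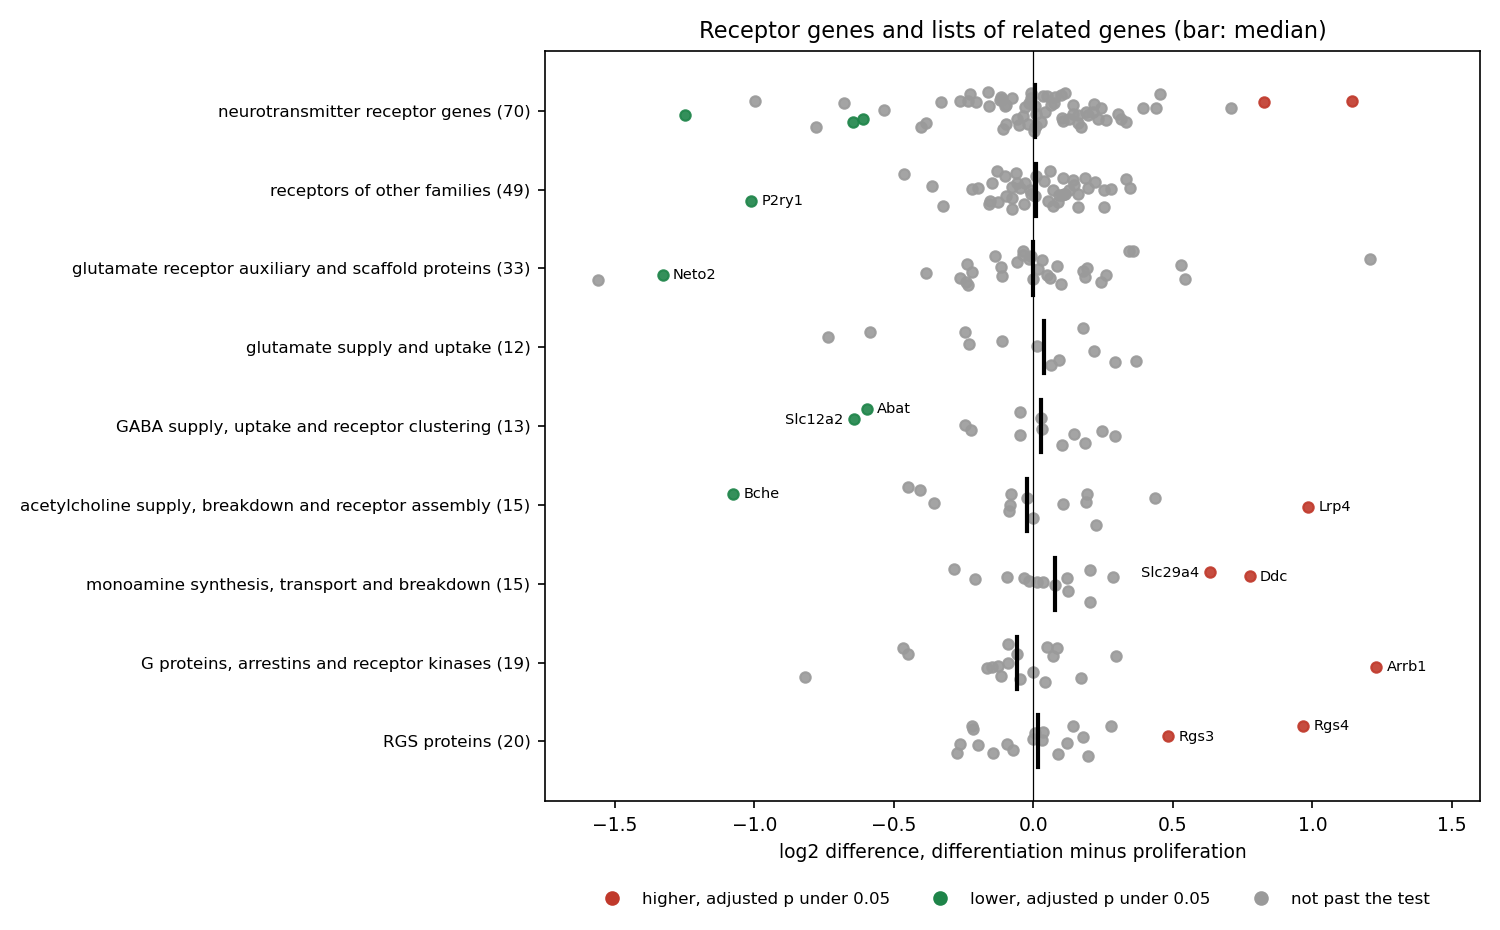
Log2 differences (differentiation minus proliferation, horizontal axis) of the 70 receptor genes and of the measured genes of 8 lists of related genes, 1 point per gene, with black bars at the medians. Vertical scatter within a list only separates the points. Named points are the genes past the adjusted test, and all medians lie between -0.06 and 0.08.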

How the data were processed

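Total RNA of 6 samples, 3 proliferation and 3 differentiation, was measured on Affymetrix Mouse Gene 1.0 ST chips. The deposited values are log2 intensities that the authors normalised with RMA, which equalises array distributions and would hide a shift common to most rows. The genome build is not given in the sources used here. Groups were taken from the labels. Of 35556 rows, 21789 carried 1 symbol in the platform annotation, 1621 several and 12146 none. The groups were compared over all rows in limma 3.58.1 (R 4.3.3) by lmFit and eBayes, two-sided, with Benjamini-Hochberg adjustment, no filter and calls at an adjusted p under 0.05. Named were the genes past this test or the methods' t-test, those of the study's tables, the largest difference for each transmitter and called genes of the related lists. Genes and lists were chosen with earlier results of these data known. The steps were tested on simulated data. Array values carry no counts, so that precision rests on the number of arrays. Alternatives were a replicate block, limma-trend, array weights, cyclic loess, median centring, brighter rows, 1-symbol rows, means of rows, each array left out and the methods' t-test.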

Additional observations from a re-analysis of the deposited data

How the results depend on the processing

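With 3 arrays per group and 35556 rows adjusted over, the number of called genes moved with the processing, while no named gene reversed its direction under any alternative run. Cyclic loess and median centring each gave the same 5 receptor genes as the main comparison (2 higher, 3 lower). Over all rows they called 1497 and 1462, against 1459 in the main comparison. With limma-trend and robust estimation 6 were called, the added gene being Chrm2, so that acetylcholine receptors counted 2, together with 1783 of all rows. Adjusting over the brighter rows alone gave 8 of 30 receptor genes (5 lower, 4 of acetylcholine receptors) and 2112 of those rows. Rows with 1 symbol gave 11 (4 higher, 7 lower, with 4 glutamate, 4 acetylcholine and 1 GABA receptor) and 2038 of 21789 rows. Genes read as the mean of their rows gave 12 (5 higher, 7 lower, with 4, 4 and 1 likewise) and 1889 of 19938 genes. In each of these reduced sets all 5 genes were kept and fewer features were adjusted over. Array weights gave 25 (14 higher, 11 lower, with 10 glutamate, 7 serotonin, 6 acetylcholine, 1 GABA and 1 dopamine receptor), together with 12721 of all rows, and weighted differentiation replicate 1 by 7.45 and proliferation replicate 3 by 3.62, the others under 0.5. The methods' t-test at 1.5-fold without correction gave 9 (6 lower, 4 glutamate and 3 acetylcholine receptors), and after Benjamini-Hochberg 0 for every transmitter, with 20 at an unadjusted p under 0.05 and no minimum fold.

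Leaving out each array in turn, the calls ranged from 0 to 5 (higher from 0 to 2, lower from 0 to 3, glutamate receptors from 0 to 2, serotonin receptors from 0 to 2, acetylcholine receptors from 0 to 2). With the replicate number as a block 1 receptor gene was called, Chrna7 (1 higher, 0 lower, 0 glutamate and 0 serotonin receptors). The study's methods leave it possible that the groups are paired by experiment, while the labels do not say that a number marks a shared culture. The deviations of same-numbered arrays from their group means correlated at -0.00, 0.09 and -0.07. Those of arrays with different numbers correlated from -0.17 to 0.16. Such values cannot decide whether the arrays are paired, and the main comparison took no account of pairing. Of the values for single named genes under the alternatives, 240 kept their side of the threshold, 57 lost the call and 21 gained it. Of the related genes named, the block ended the calls of Abat (0.0762), Slc12a2 (0.103), Slc29a4 (0.112) and Rgs3 (0.0899, all adjusted p). The number of arrays limits the precision.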

Other observations

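Gabrb2, a GABA-A receptor subunit, had 3 rows on the array and was the only receptor gene with several. Their log2 differences were 0.17, 0.20 and 0.09, and none of the 3 passed the adjusted test of limma (adjusted p = 0.564, 0.732 and 0.877). Receptor genes that neighbour each other in the mouse gene table had differences of the same sign in Chrna5, Chrna3 and Chrnb4 (0.01, 0.19 and 0.23), Htr3a and Htr3b (0.44 and 0.45), Gabrg3 and Gabra5 (-0.23 and -0.11), Gabra6 and Gabrb2 (0.08 and 0.17), Gabra4 and Gabrb1 (-0.12 and -0.04) and Chrnb3 and Chrna6 (-0.01 and -0.03), and of opposite sign in Gabrg1 and Gabra2 (-0.10 and 0.39), of which 0 genes passed by limma and Gabra2, Htr3a and Htr3b had an unadjusted p under 0.05.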
